A study of Homo sapiens with 2 samples.

Results

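The loci of ADARB1 and ADAR, the genes of the human RNA editing enzymes ADAR2 and ADAR1, were followed in messenger RNA of HEK-293T, an established line from human embryonic kidney. The cells carried a CIRTS-hADAR biosensor and were sequenced with or without the small molecule ABA (abscisic acid, a plant hormone). Members were all A positions of the transcript strand listed in both libraries within the hg19 coordinates 46494493 to 46646478 of chromosome 21 (plus strand, ADARB1) and 154554534 to 154600475 of chromosome 1 (minus strand, ADAR). There were 305 such positions at ADARB1 and 1635 at ADAR, 1940 of the 2861709 positions listed in both libraries. The pair was chosen by values of these libraries: a high A-to-G share and a high read depth with ABA had already been seen at ADARB1, and ADAR was named beside it. The contrasts between ABA and no ABA are therefore given as a description, with no test.

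Each condition had 1 library of 1 biological replicate, per the labels, so no difference has a replicate check. All intervals are 95% intervals of counting error alone, and they are too narrow to the extent that 1 read covers several neighbouring positions. Both groups carried the biosensor. CIRTS is an RNA-targeting system assembled from human protein parts, in which a small molecule can be made to join the RNA-binding part and the effector part. The labels do not say which ADAR the construct holds. Earlier published CIRTS editors used the catalytic domain of human ADAR2, the product of ADARB1, and reads of such a construct would align to ADARB1. The files list aligned bases, so a single read cannot be assigned to construct RNA or to RNA of the cells' own gene. Which of them the ADARB1 reads stem from was not tested.

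ADAR enzymes deaminate adenosine to inosine in double-stranded RNA, and sequencing reads inosine as G. ADAR1 is widely expressed and edits many sites in repeat-derived duplexes, while ADAR2 is best known for recoding receptor and channel messages in neurons. Both proteins carry RNA-binding domains ahead of a catalytic deaminase domain at the C-terminal end. ADAR2 also edits its own transcript.

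The ABA library listed 3518802 positions with 45277712 base reads, and the library without ABA listed 4079392 positions with 51092343. Median depth was 10 reads per position in both. Over the nuclear positions listed in both libraries (chromosomes 1 to 22 and X), outside the 2 loci, the A-to-G share was 0.0953% with ABA and 0.0570% without ABA.

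All but 1 of the ADARB1 positions listed in both libraries fell into 8 short and deep blocks, where a block joins listed positions and a gap of over 100 nt starts a new one. The 8 blocks spanned 64 to 176 nt each and 1169 nt together, from 46596515 to 46642104, and were parted by gaps of 609 to 19469 nt. The remaining position, 46596262, had 6 reads in each library, the lowest depth the files list. ADARB1 blocks are numbered in the direction of the transcript.

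Depth differed between these blocks. Block 1 (46596515 to 46596578) was the shallowest, with a mean of 60.2 reads per listed A position with ABA and 38 without ABA. Block 2 (46600250 to 46600358) had 134 with ABA and 66.1 without ABA, and block 5 (46604836 to 46605004) had 119 and 77.6. The other 5 blocks lay between 79.6 and 115 with ABA and between 54.1 and 69.8 without ABA.

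The blocks stopped short of the end of the gene. Block 8 ended 4374 nt before the last base of ADARB1, and in that stretch, the 3′ end of the gene, no position was listed in both libraries. The ABA library listed 10 positions there and the library without ABA 7, none deeper than 7 reads. The 102022 nt before block 1 held 3 listed positions with ABA and 1 without ABA. Mean depth over the locus was 101 reads per listed position with ABA and 64.7 without ABA, so the 3′ end lay far below the blocks in both libraries.

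ADAR, measured the same way, was covered by 14 blocks from its 3′ end up to 154575098, spanning 6277 nt. Its last block, 154554584 to 154557516, was 2933 nt long, ended 50 nt from the end of the gene and held 37.1% of the locus reads with ABA and 38.7% without ABA. The first block, 154573522 to 154575098, held 29.8% and 29.5%. Mean depth over the locus was 19.5 reads per listed position with ABA and 19.3 without ABA, and block means ran from 16.3 to 27.0 with ABA and from 14.2 to 23.8 without ABA. Per listed position ADARB1 was thus 5.16 times as deep as ADAR with ABA and 3.35 times without ABA, over the positions that passed the listing cutoff in both libraries. As stretches under 6 reads are missing, neither value is an average over a whole transcript.

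**Figure D1:**
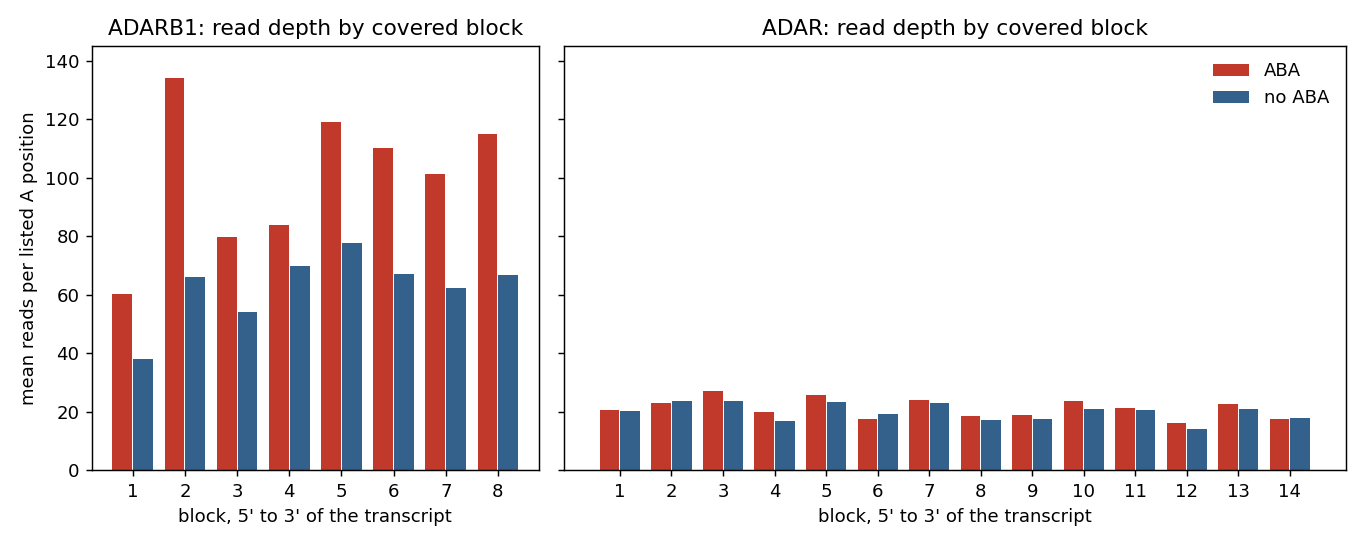
Mean number of reads per listed A position in each covered block of ADARB1 (left, 8 blocks) and ADAR (right, 14 blocks), in transcript order, for the ABA library (red) and the library without ABA (blue). ADARB1 blocks reach 134 reads with ABA, while no ADAR block passes 27.0.

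ADARB1 depth was higher with ABA in 8 of 8 blocks. Scaled to the nuclear reads at positions listed in both libraries, the locus had 767 base reads per 1000000 with ABA and 480 without ABA, a ratio of 1.60 (1.57 to 1.63). The ratio was highest in block 2, at 2.08 (1.96 to 2.22), and lowest in block 4 (46603278 to 46603424), at 1.23 (1.18 to 1.29). The other 6 ran from 1.51 to 1.77. A depth ratio of at least 1.5 was reached by 7 of the 8 blocks, against 2.0% of the 43880 nuclear blocks that held 200 or more reads in each library. Depth was among the values that chose the locus, so the count is no evidence about it. In bulk RNA, more cells that hold an RNA and more of it per cell cannot be told apart.

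ADAR depth hardly differed between the libraries. The locus had 797 base reads per 1000000 with ABA and 767 without ABA, a ratio of 1.04 (1.02 to 1.06), and block ratios ran from 0.943 to 1.21. None of its 14 blocks reached a ratio of 1.5 in either direction; 2.63% of nuclear blocks were lower with ABA by that fold. The ADARB1 depth ratio was 1.54 times that of ADAR (1.5 to 1.58). It was also above that of the luciferase reporter RNAs listed in the files. Firefly had a depth ratio of 1.30 (1.28 to 1.32) and renilla 1.22 (1.19 to 1.25), below ADARB1 by factors of 1.23 (1.2 to 1.26) and 1.31 (1.28 to 1.35).

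The A-to-G share of ADARB1, G reads over A plus G reads, was 1.57% with ABA (482 of 30698 reads, 1.43 to 1.72) and 0.466% without ABA (92 of 19723 reads, 0.376 to 0.572). The ratio was 3.37 (2.69 to 4.25). Mismatches of other kinds at the same positions were rare: A-to-C plus A-to-T came to 13 reads with ABA, 0.0430% (0.0229 to 0.0735), and 5 reads without ABA, 0.0255% (0.00827 to 0.0594). The A-to-G share thus lay above the other mismatches in both libraries.

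Every ADARB1 block had a higher A-to-G share with ABA, but the blocks differed widely in level. Block 7 (46640753 to 46640928) was highest in both libraries, at 3.93% (3.34 to 4.58) with ABA and 2.26% (1.71 to 2.94) without ABA. Block 1 had 2.94% (1.87 to 4.38) with ABA and 0.405% (0.0491 to 1.45) without ABA. Block 2 had 2.27% (1.77 to 2.88) and 0.688% (0.331 to 1.26).

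Blocks 3 to 5 were lower with ABA than the first 2. Block 3 (46602502 to 46602668) had 1.17% (0.873 to 1.53) with ABA and 0.297% (0.136 to 0.564) without ABA. Block 4 had 0.458% (0.271 to 0.722) and 0.0915% (0.0189 to 0.267), and block 5 had 0.757% (0.555 to 1.01) and 0.101% (0.0275 to 0.259). The interval of block 4 with ABA overlapped that of block 5 and lay below those of the other 6 blocks.

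Of the last 3 blocks, 6 and 7 were again above blocks 3 to 5 with ABA, and block 8 had about the share of block 3. Block 6 (46624474 to 46624648) had 1.69% (1.32 to 2.14) with ABA and 0.282% (0.114 to 0.581) without ABA. Block 8 (46641943 to 46642104) had 1.16% (0.868 to 1.52) with ABA, from 52 G reads, and 0.0769% (0.00932 to 0.278) without ABA, from 2, the lowest share of the 8 blocks without ABA. The ratio in block 8, 15.1 (3.97 to 128), was the highest of the locus and that in block 7, 1.73 (1.27 to 2.4), the lowest. Block 7 also had the highest share without ABA.

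A block was called higher where its share with ABA was at least 2-fold that without ABA, with at least 5 G reads, and 200 or more reads in each library. This held for 7 of 8 ADARB1 blocks, all but block 7, and for 1.28% of nuclear blocks; 0.119% of nuclear blocks and no ADARB1 block were lower by the same rule. As a G read is more likely to be seen in a deep block, the share was also formed over the 1197 nuclear blocks at least as deep as ADARB1 block 1 without ABA, where 18.8% were called higher and 1.17% reached the depth ratio of 1.5. These counts describe the choice of the locus and are not independent support.

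**Figure D2:**
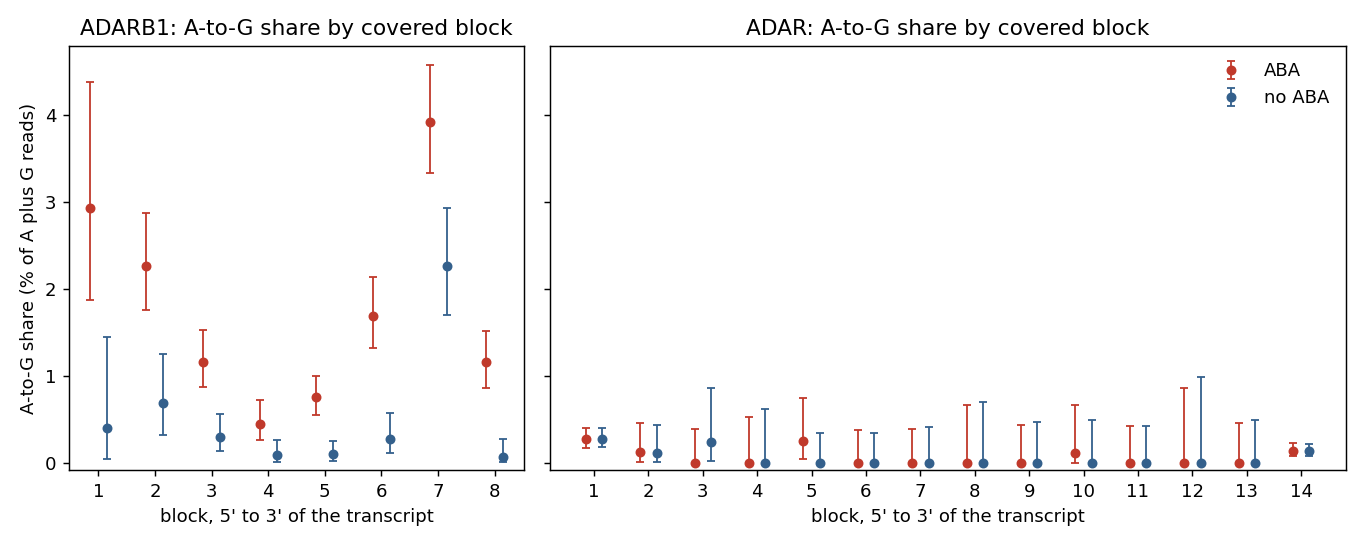
A-to-G share (percent of A plus G reads) in each covered block of ADARB1 (left) and ADAR (right), in transcript order, with ABA (red) and without ABA (blue). Points are shares and bars exact 95% intervals of counting error. All 8 ADARB1 blocks are higher with ABA, and 8 of 14 ADAR blocks have no G read in either library. Those 8 held 368 to 1049 reads each without ABA, and their intervals there reach up to between 0.351% and 0.997%. These limits lie above the shares of ADARB1 blocks 4 and 5 without ABA.

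The A-to-G share of ADAR was 0.154% with ABA (49 of 31919 reads, 0.114 to 0.203) and 0.149% without ABA (47 of 31547 reads, 0.109 to 0.198), a ratio of 1.03 (0.676 to 1.57). The ADARB1 ratio was 3.27 times the ADAR ratio (2.07 to 5.16). In level, the ADARB1 share was 10.2 times that of ADAR with ABA (7.61 to 14) and 3.13 times without ABA (2.18 to 4.55). These factors were 24.4 with ABA (14.8 to 43.1) and 8.21 without ABA (4.12 to 18.1) when positions that reached 35% in a library were left out of both loci, a comparison added after the data were seen. At ADARB1 this left out 46640815 and 46640856, the positions of highest share with ABA, which reached 35% with ABA alone. No ADAR block was called higher or lower, and only 2 of the 14 had the 5 G reads with ABA that a call of higher needs, so the rule could not have called the other 12.

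Most G reads at ADAR came from 3 positions that were alike in both libraries. Position 154573967 had 11 of 31 reads (35.5%, 19.2 to 54.6) with ABA and 14 of 39 (35.9%, 21.2 to 52.8) without ABA. Position 154555492 had G in all reads, 10 with ABA and 13 without ABA, and position 154574820 likewise, 12 with ABA and 10 without ABA. A share of this kind, at least 35% in either library, is called variant-like here. Whether these are sequence variants of the cell line was not tested.

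With these 3 positions left out, ADAR was close to the rest of the transcriptome. It then had 16 of 31866 reads (0.0502%, 0.0287 to 0.0815) with ABA and 10 of 31485 (0.0318%, 0.0152 to 0.0584) without ABA, a ratio of 1.58 (0.675 to 3.90). Nuclear positions outside both loci, treated the same way, had 0.0785% and 0.0409%, a ratio of 1.92 (1.88 to 1.96), which lies within the ADAR interval. At this depth a rise of ADAR as large as the nuclear one could thus not be told from none. Of the 600 ADAR positions covered by 20 or more reads in each library, the share was higher with ABA at 11 and lower at 6. Over all nuclear positions of that depth it was higher at 3.30% and lower at 1.87%.

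Many ADARB1 positions carried G reads. A G read was seen at 107 of 305 positions with ABA and at 32 without ABA, of which 83 had it with ABA alone and 8 without ABA alone. Nuclear positions outside both loci had the same direction, with 26229 positions with ABA alone and 14190 without ABA alone. A G read was seen at 0.997% of them with ABA and at 0.575% without ABA. These counts are not corrected for depth. ADARB1 had a mean of 101 reads with ABA and 64.7 without ABA, and a G read is more likely to be seen at a deeper position. Of the 290 ADARB1 positions with a depth of 20 or more in each library, the share was higher with ABA at 35.2% and lower at 3.79%, beside the 3.30% and 1.87% of nuclear positions given above. At 50 or more reads, 82 of 224 ADARB1 positions were higher and 7 lower, against 11.9% and 7.19% of nuclear positions. Computed for a common depth of 6 reads, the expected share of positions with a G read was 6.47% at ADARB1 with ABA and 1.99% without ABA, against 0.447% and 0.350% at ADAR and 0.379% and 0.206% at nuclear positions outside both loci.

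The highest shares belonged to a pair of positions in block 7 that lie 41 nt apart. Position 46640856 had 51 of 113 reads (45.1%, 35.8 to 54.8) with ABA and 16 of 67 (23.9%, 14.3 to 35.9) without ABA. Position 46640815 had 58 of 146 reads (39.7%, 31.7 to 48.1) with ABA and 25 of 93 (26.9%, 18.2 to 37.1) without ABA. Together they held 22.6% of the ADARB1 G reads with ABA and 44.6% without ABA.

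Another 6 positions reached the limit for being named, a share of at least 10% with at least 3 G reads in either library and a depth of 20 or more in each. In block 3, position 46602538 had 26 of 97 reads (26.8%) with ABA and 6 of 63 (9.52%) without ABA. The last position of block 7, 46640928, had 20 of 122 (16.4%) and 7 of 101 (6.93%). Position 46596578, the last of block 1, had 14 of 92 reads (15.2%) with ABA and 1 of 53 (1.89%) without ABA.

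The remaining 3 had few G reads without ABA. Position 46624526 in block 6 had 21 of 144 reads (14.6%) with ABA and 2 of 75 (2.67%) without ABA, and 46640779 in block 7 had 10 of 76 (13.2%) and 1 of 41 (2.44%). Position 46640767 in block 7 was the exception in direction, with 2 of 53 reads (3.77%, 0.460 to 13) with ABA and 3 of 29 (10.3%, 2.19 to 27.4) without ABA, intervals that overlap. Just under the limit were 46600250, the first position of block 2, at 9.45% with ABA and 4.94% without ABA, and 46600303, at 12 of 141 reads (8.51%) with ABA and 0 of 51 without ABA, where the exact interval reaches 6.98%.

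The other 297 ADARB1 positions had 280 of 29855 reads (0.938%, 0.832 to 1.05) with ABA and 31 of 19201 (0.161%, 0.110 to 0.229) without ABA, a ratio of 5.81 (4.0 to 8.71) beside the 3.37 of all positions. The difference in share was smaller without the named positions, 0.776 percentage points against 1.10 over all positions. The named positions held 202 of 482 G reads with ABA and 61 of 92 without ABA, a larger part without ABA. The ratio is therefore higher without them. As they were chosen by shares in these libraries, the ratio without them is a description. The 8 named positions together had 24.0% and 11.7%, a ratio of 2.05 (1.53 to 2.78), and were chosen by these shares. Leaving out block 7 whole gave 1.22% with ABA and 0.214% without ABA, a ratio of 5.71 (4.06 to 8.26). Within block 7, the 37 positions beside the 2 highest had 1.25% with ABA and 0.617% without ABA, with a ratio of 2.02 (1.09 to 3.98).

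**Figure D3:**
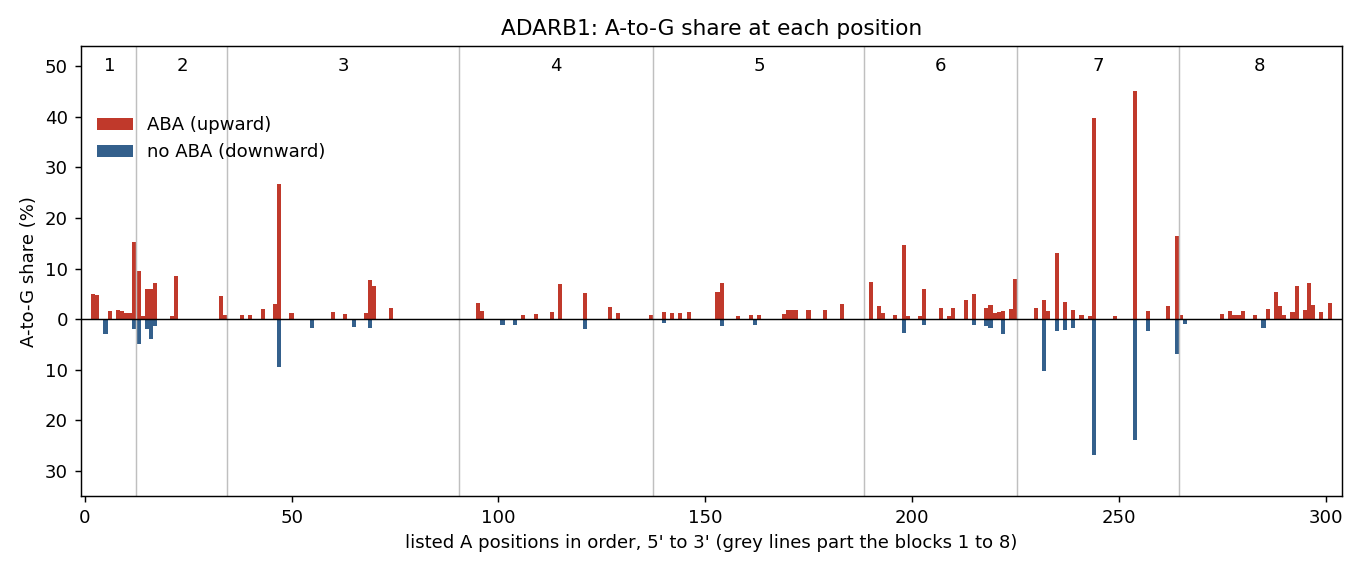
A-to-G share (percent) at each listed A position in ADARB1 blocks 1 to 8, in transcript order, with ABA drawn upward (red) and without ABA drawn downward (blue). The tallest bars, 45.1% and 39.7% with ABA and 23.9% and 26.9% without ABA, stand in block 7.

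The base beside an A position can be read in part from the files, which list A positions alone: a listed neighbour is an A, and an unlisted one was counted as another base. The first position of each block was left out on the 5′ side and the last on the 3′ side, where the neighbour is unknown. ADAR enzymes are known to favour A or U over G on the 5′ side of the edited base, and G on its 3′ side. Unlisted neighbours pool C, G and U, so these preferences could not be measured, only A against any other base. At ADARB1 the 75 positions with an A on the 5′ side had a share of 2.44% (2.11 to 2.81) with ABA and 0.684% (0.477 to 0.951) without ABA. The 221 positions with another base there had 1.25% (1.11 to 1.40) with ABA and 0.372% (0.279 to 0.486) without ABA. The share with ABA was higher beside a 5′ A in 6 of the 7 blocks that held both kinds, and block 3 was the exception. Without ABA it was higher beside a 5′ A in 3 of these blocks and lower in 4, so the pooled order did not hold across blocks.

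On the 3′ side, a comparison added after the 5′ side had been seen, the order was the opposite. The 75 positions followed by an A had 0.504% (0.359 to 0.688) with ABA and 0.136% (0.0549 to 0.281) without ABA. The 221 others had 1.81% (1.64 to 1.99) with ABA and 0.543% (0.428 to 0.678) without ABA. A 3′ A went with a lower share in 6 of 7 blocks in each library, and the exception was block 5 with ABA and block 2 without ABA. Of the 8 named positions, 6 had another base on the 3′ side and none an A, and the 2 at a block's end have an unknown 3′ base. On the 5′ side 3 of the 8 had an A and 5 another base. Named positions were chosen by share, and most ADARB1 positions lack a 3′ A (221 against 75), so these counts are a description. Without the named positions the shares with ABA were 1.56% beside a 5′ A and 0.690% elsewhere, and 0.504% before a 3′ A and 1.09% elsewhere. Without ABA, these 4 shares lay between 0.129% and 0.183%, with intervals that overlap.

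Nuclear positions outside both loci with at least 20 reads showed the same order at a lower level, variant-like positions left out. With ABA their share was 0.139% (0.135 to 0.142) beside a 5′ A and 0.115% (0.113 to 0.117) elsewhere, and 0.0738% (0.0712 to 0.0766) before a 3′ A and 0.145% (0.142 to 0.147) elsewhere. Without ABA the 5′ values were 0.0677% and 0.0662%, which did not differ beyond counting error. The 3′ values were 0.0562% and 0.0717%.

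**Figure D4:**
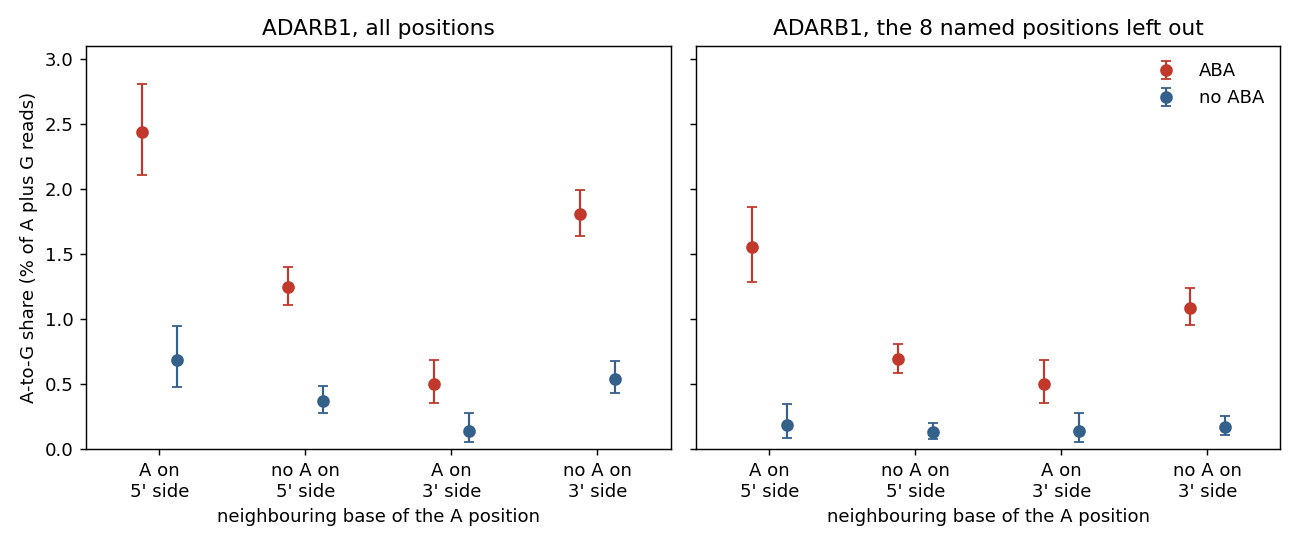
A-to-G share of ADARB1 positions (percent of A plus G reads) by whether the neighbouring base on the 5′ or 3′ side is an A, with ABA (red) and without ABA (blue), over all positions (left) and with the 8 named positions left out (right). Points are shares and bars exact 95% intervals of counting error; with ABA the share is 2.44% beside a 5′ A and 0.504% before a 3′ A.

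Across the 8 ADARB1 blocks, Spearman's rho was 0.48 between the depth ratio and the share with ABA, and 0 between the depth ratio and the A-to-G ratio, a description over blocks of 1 RNA that share a library. Block 4 had the lowest depth ratio and the lowest share with ABA.

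Against the luciferase reporters, ADARB1 had a higher A-to-G share in both libraries, while its ratio was near that of firefly and above that of renilla. Its A-to-G ratio was 0.941 times that of firefly luciferase (0.641 to 1.38) and 1.71 times that of renilla (1.03 to 2.82). Its share was 2.17 times that of firefly with ABA (1.84 to 2.56) and 2.3 times without ABA (1.61 to 3.34). It was 3.67 times that of renilla with ABA (2.82 to 4.85) and 2.15 times without ABA (1.39 to 3.44). The reporters had fewer positions with a G read at 6 reads, 2.59% with ABA and 0.959% without ABA in firefly, and 2.28% and 1.24% in renilla.

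In depth ratio, 7 ADARB1 blocks lay above 98.2% or more of nuclear blocks and block 4 above 86.0%. The difference in share, ABA minus no ABA, ran from 0.366 to 2.54 percentage points over the 8 blocks. Over the 7 that held 1000 or more reads in each library, all but block 1, it ran from 0.366 to 1.66, and 99% of the 7555 other nuclear blocks that held 1000 or more reads in each library lay below 0.366. A difference of at least 1 point with a depth ratio of at least 1.5 was found in 4 of these 7 ADARB1 blocks and in 1 of the 7555. Depth and A-to-G share with ABA chose the locus, so these ranks and counts describe that choice and are not independent support.

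**Figure D5:**
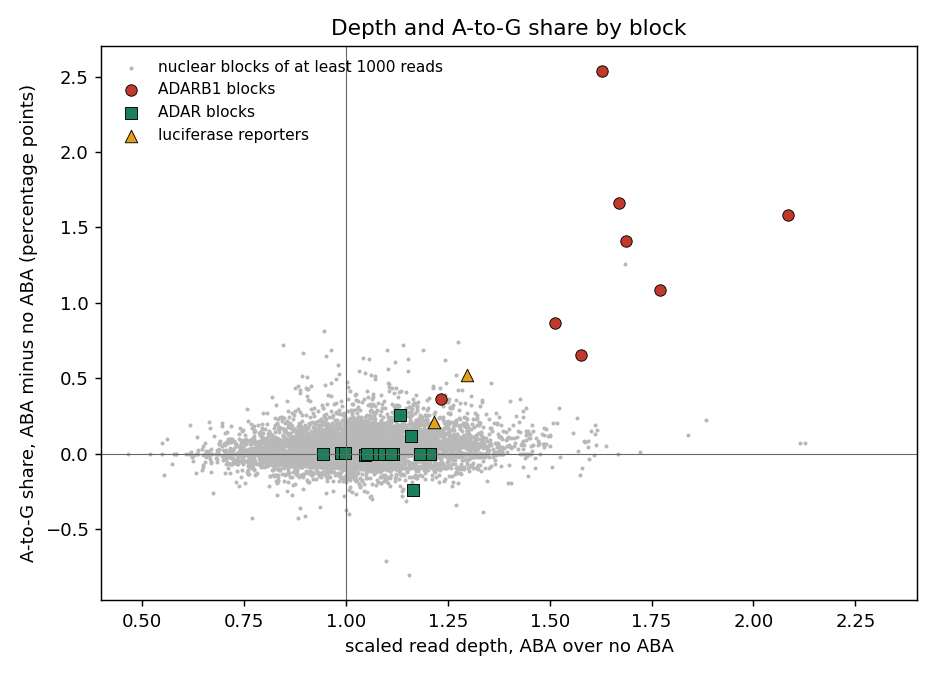
Scaled read depth, ABA over no ABA (horizontal), against the difference in A-to-G share, ABA minus no ABA in percentage points (vertical), for 7555 nuclear blocks of at least 1000 reads (grey), ADARB1 blocks (red circles), ADAR blocks (green squares) and the luciferase reporters (orange triangles). ADARB1 blocks lie between 0.366 and 2.54 points, and ADAR blocks near 0; blocks of the 2 loci are drawn from 200 reads up, so the highest ADARB1 point, block 1, is below the minimum of the grey points.

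Among 1039 blocks outside both loci that held 1000 or more reads in each library, at least 5 G reads with ABA and a G read without ABA, the 1 nearest to ADARB1 in depth ratio and A-to-G ratio (distance on the log2 scale 0.08, over 2 libraries) was on the plus strand of chromosome 19, from 41263237 to 41263407. It had a depth ratio of 1.69 and a share of 1.79% with ABA (55 G reads) and 0.536% without ABA (10 G reads). It was the 1 block of the 7555 with a difference of at least 1 point and a depth ratio of at least 1.5. Its gene was not looked up, and whether its reads stem from the construct was not tested. Of 5 blocks within 10000 nt on the same strand, the nearest upstream one, 41256936 to 41257384, had 0.775% and 0.0874%, with a depth ratio of 1.10. The 4 downstream ones had at most 1 G read in each library and depth ratios of 1.01 to 1.17. The next nearest blocks, on chromosome 9 from 140136951 to 140138143 (plus) and on chromosome 14 from 102552096 to 102552708 (minus), had shares of 0.201% and 0.139% with ABA and 0.0557% and 0.0419% without ABA. The shares without ABA rest on 4 and 2 G reads. Their A-to-G ratios were 3.60 (1.21 to 14.5) and 3.31 (0.685 to 31.5), and their depth ratios, 1.43 and 1.40, were under 1.5.

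Few reads were listed on the opposite strand. Minus-strand reads at ADARB1 covered 88 positions with ABA, 85 of them within the 8 blocks, and 46 without ABA, all 46 within the blocks. They amounted to 2.85% of the plus-strand reads with ABA and 2.09% without ABA. Their median depth was 9 reads with ABA and 8 without ABA, near the lowest listed depth of 6. Positions below that are missing, so these percentages are lower limits. None of 877 reads with ABA and none of 413 without ABA was a G, with exact intervals that reach 0.420% and 0.889%. With ABA this limit lies below the 1.57% of the plus strand. Without ABA it lies above the 0.466% there, so a share as on the plus strand could not be told from 0. The opposite-strand positions are T on the plus strand, so they are not the positions of those shares. A-to-G changes of ADARB1 RNA cannot show at them, so the comparison does not bear on those changes. ADAR had no opposite-strand position listed with ABA and 2 without ABA, with 12 reads, too few to show a share.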

How the data were processed

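For each library the authors deposited counts of reads with each base at listed positions, not normalised; per the file headers, positions were kept under a single base cutoff of 5 reads, plus-strand files list A positions and minus-strand files T positions. Cutadapt, HISAT2 and the hg19 build are named in the submitters' processing notes, without versions. Versions, the base counter and duplicate removal are not given in the sources used here.

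Minus-strand bases were read as their complement. Shares have exact (Clopper-Pearson) intervals, ratios of shares and of depths exact conditional binomial ones, and ratios of ratios normal ones on the log scale. A count of 0 was set to a floor of 3 reads. Depth ratios were scaled to nuclear reads at positions listed in both libraries (40037927 with ABA, 41124763 without ABA). Blocks were formed over all nuclear positions, and calls were by fold. The block code was tested on simulated independent reads, with a base share above the nuclear one and changes placed in deep blocks alone. Calls in shallow blocks, or on reads that cover several positions, were not covered by it. Named positions followed a fixed rule (share, G reads and depth as given in the text). Members, rules and lists were chosen with earlier results of these data known. A gene annotation or genome of the hg19 build and protein sequences were not used here, so blocks are not assigned to exons, no sequence is shown and the planned match of blocks to the protein was not run. Other genes of the pathway could not be placed without an annotation and were not analysed here. Intervals came from scipy 1.17.1, tables from pandas 2.3.3 and numpy 2.4.6, and plots from matplotlib 3.10.9, all under Python 3.11.15.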

Additional observations from a re-analysis of the deposited data

How the results depend on the processing

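No paired analysis was possible because each condition had 1 library. The interval of the ADARB1 A-to-G ratio, 3.37, stayed above 1 under every alternative that counted A-to-G. The ratio was 4.70 with variant-like positions left out and 5.81 with the named positions left out, an alternative added after the data were seen, and lay between 3.12 and 5.71 with single blocks left out. The A-to-C and A-to-T background, formed the same way, had ratios of 1.69 at ADARB1 (0.565 to 6.05) and 0.329 at ADAR (0.00628 to 4.10), from few reads. The ADAR A-to-G ratio of 1.03 was 1.58 without variant-like positions, and the ratio of the 2 loci lay between 3.03 and 5.55 with single blocks left out. Scaled to all listed nuclear reads, the depth ratio was 1.76 at ADARB1 and 1.14 at ADAR. With single blocks left out it lay between 1.56 and 1.67 at ADARB1 and between 1.04 and 1.07 at ADAR. Other minimums of coverage, thinning to the lower depth and other positions moved no ratio beyond its interval. Under the gaps, read minimums and folds tried, 7 of 8 ADARB1 blocks were called higher, or 6 of 7 at the highest read minimum, and 0 ADAR blocks, while the share over all nuclear blocks ran from 0.729% to 2.87%. A coverage minimum of 50 reads left no ADAR position. The cause of these shifts was not tested beyond what each alternative leaves out. Single positions of ADAR, at about 19 reads, and the shares without ABA, from few G reads, are the values that depth limits most.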
